A study of Rattus norvegicus with 10 samples.

Results

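Dual-specificity phosphatases of the MAP kinase phosphatase family were examined in the PFC of rats injected with MK-801, which blocks the channel of the NMDA receptor. The rule for the group names 4 genes by Ensembl identifier, Dusp1 (ENSRNOG00000003977), Dusp4 (ENSRNOG00000011921), Dusp5 (ENSRNOG00000014061) and Dusp6 (ENSRNOG00000023896), of the 30560 genes in the count table. The table used here holds no row with the identifier of Dusp1, so Dusp1 is not analysed here. The other 3 genes had a row, and all 3 were among the 16137 genes with enough counts to be tested. The symbols come from the rule itself, since the table lists identifiers alone.

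RNA-seq libraries were made from 10 WT male rats of the SD strain, 1 library per rat, aged 21 days when the study began. After 1 week of habituation, 5 rats of the MK-801 group received 0.2 mg/kg of the drug and 5 rats of the control group received saline (0.9%), both by daily intraperitoneal injection for 2 weeks. The time between the last injection and the collection of the PFC is not given in the sources used here. Control libraries held between 24348037 and 29375092 counts, and MK-801 libraries between 24334589 and 30824539. Values are given as CPM, counts relative to a library size scaled by the TMM method, which makes the libraries comparable but does not correct for gene length, so levels are compared between rats and not between genes.

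MAP kinase phosphatases remove phosphate groups from both the threonine and the tyrosine of the activation loop of MAP kinases and thereby switch them off. Several of their genes are themselves transcribed in response to ERK signalling, so that the pathway makes its own brake, and in cortical neurons they belong to the transcripts that follow synaptic activity and calcium entry. Dusp1 and Dusp4 encode inducible nuclear phosphatases that act on several MAP kinases. Dusp5 encodes an inducible nuclear phosphatase with a preference for ERK, and Dusp6 encodes a cytoplasmic phosphatase with the same preference.

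Serum response factor binds the CArG box and CREB binds the CRE, and both transcription factors respond to neuronal activity. Stretches of 250 bases upstream of the transcription start are shown to set the regulatory letters of the ERK-directed members side by side. They come from RefSeq on the GRCr8 assembly, which is not the build of the counts, and 3 of the 4 named genes, Dusp1, Dusp5 and Dusp6, had such a window. The Dusp5 window lies at chr1:262543524-262543773 and the Dusp6 window at chr7:35979354-35979603, both on the plus strand. Capitals mark matches to the motifs searched.
Dusp5: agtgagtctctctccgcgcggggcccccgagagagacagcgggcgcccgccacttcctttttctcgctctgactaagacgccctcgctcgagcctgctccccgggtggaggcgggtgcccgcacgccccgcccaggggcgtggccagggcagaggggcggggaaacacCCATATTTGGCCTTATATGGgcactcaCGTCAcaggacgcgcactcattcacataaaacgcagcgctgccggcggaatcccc
Dusp6: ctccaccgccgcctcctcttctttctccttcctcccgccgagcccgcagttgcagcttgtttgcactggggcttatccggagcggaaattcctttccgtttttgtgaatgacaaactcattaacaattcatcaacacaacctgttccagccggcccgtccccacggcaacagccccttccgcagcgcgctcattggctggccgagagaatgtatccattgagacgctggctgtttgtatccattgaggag

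The motifs searched on both strands were the CRE (TGACGTCA), its half-site (TGACG, which also lies within the CRE), the AP-1 site (TGANTCA), the CArG box, the ETS site (CCGGAA) and the TATA box (TATAAA). The Dusp5 window held a pair of adjacent CArG boxes, at positions -82 to -73 and -72 to -63 from the start, and a CRE half-site on the minus strand at -55 to -51. Of all 33469 windows of this length, 1.5% carried a CArG box and 18.2% a CRE half-site. The Dusp6 window held none of the letters searched, which says only that they do not occur in these 250 bases. The Dusp1 window, which is not printed here, held a CRE at -124 to -117 and a further CRE half-site at -172 to -168. Among all windows, 1.59% carried the CRE, 6.34% the AP-1 site, 12.6% the ETS site and 12.9% the TATA box. These matches describe letters and are not evidence of binding.

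Of the 3 phosphatase genes, Dusp6 had the largest difference between the groups. In the control group, Dusp6 stood at 17.0, 14.7, 18.1, 17.6 and 19.8 CPM in replicates 1 to 5. In the MK-801 group, it stood at 13.7, 33.4, 37.8, 32.2 and 26.5 CPM in replicates 1 to 5. Thus 4 of the 5 MK-801 rats lay above every control rat, and MK-801 replicate 1 lay below all 5 of them. The mean of the control rats was 17.4 ± 1.88 CPM and that of the MK-801 rats 28.7 ± 9.33 CPM (SD, n = 5 each), a log2 fold change of 0.72 with a standard error of 0.21 in the edgeR fit across all genes, or 1.64-fold.

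Dusp4, which encodes the nuclear phosphatase with the wider choice of MAP kinases, showed a smaller difference. Its control rats had 11.2, 9.12, 8.49, 11.7 and 9.45 CPM in replicates 1 to 5. The MK-801 rats had 11.3, 10.5, 20.6, 16.6 and 12.7 CPM in replicates 1 to 5. MK-801 replicates 3, 4 and 5 exceeded the highest control rat, whereas replicates 1 and 2 lay within the range of the control group. The means were 9.995 ± 1.39 CPM (SD, n = 5) and 14.3 ± 4.18 CPM (SD, n = 5), a log2 fold change of 0.52 with a standard error of 0.18, or 1.43-fold.

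Dusp5, which encodes the nuclear phosphatase directed at ERK, had the fewest reads and the smallest difference. It reached 3.59, 3.58, 4.40, 4.55 and 4.39 CPM in control replicates 1 to 5. In MK-801 replicates 1 to 5 it reached 3.43, 4.51, 5.35, 6.05 and 5.64 CPM. Again MK-801 replicates 3, 4 and 5 lay above all control rats, and replicate 1 lay below them. The mean of the control rats was 4.10 ± 0.474 CPM and that of the MK-801 rats 4.997 ± 1.04 CPM (SD, n = 5 each), a log2 fold change of 0.28 with a standard error of 0.16, or 1.22-fold.

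**Figure D1:**
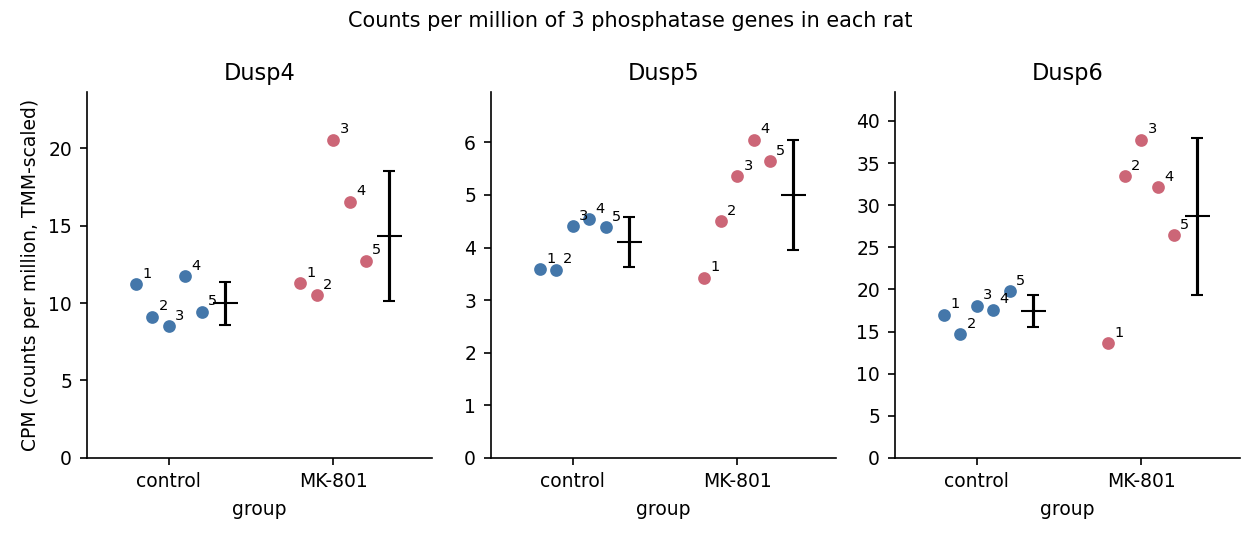
Level of Dusp4, Dusp5 and Dusp6 in each rat, in CPM on a linear axis from 0, with the control group in blue and the MK-801 group in red, numbers giving the replicate and black bars the mean ± SD of 5 rats. MK-801 replicate 1 lies at 13.7 CPM for Dusp6 and 3.43 CPM for Dusp5, below every control rat, while the other 4 MK-801 rats exceed all control rats for Dusp6.

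The 3 genes were chosen by their higher counts in MK-801 rats than in control rats, so the difference between the groups is given as a description. The calls of the fit across all genes are counted next beside their share of all genes, and nothing is read from them about the members. The median of their log2 fold changes was 0.52, against -0.01 over all genes tested. A higher log2 fold change was found for 87 genes (0.539% of those tested) above Dusp6, for 208 genes (1.29%) above Dusp4 and for 909 genes (5.63%) above Dusp5. In edgeR's quasi-likelihood test, Dusp4 and Dusp6 were the 2 members with an unadjusted p-value under 0.05 and a higher level in the MK-801 group, as were 6.90% of all genes tested. None of the 3 met the criteria of the methods, an unadjusted p-value under 0.05 together with a log2 fold change of 1 or more in either direction, which 0.229% of the genes met in edgeR. The paper applied these criteria in DESeq2, which here gave 115 of 23914 genes and none of the 3. None of the 3 had an adjusted p-value under 0.05 either. In that test 0 genes did, and 2235 genes had an unadjusted p-value under 0.05, while limma-voom also gave 0 genes and DESeq2 gave 106 (0.443% of those it tested), none of them a member. The groups overlapped for all 3 genes, whereas 1.10% of all genes lay wholly higher in the MK-801 group.

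**Figure D2:**
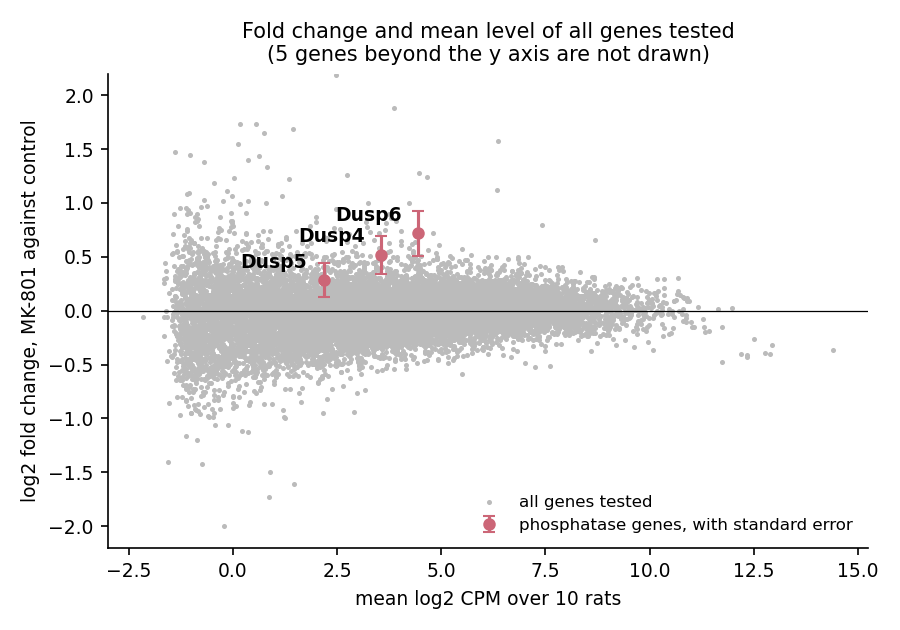
Log2 fold change between MK-801 and control rats (y axis) by mean log2 CPM over 10 rats (x axis) for all 16137 genes tested in grey, with Dusp4, Dusp5 and Dusp6 in red and their standard errors as bars. The members stand at log2 fold changes of 0.52, 0.28 and 0.72 in that order, in the upper part of the cloud, and 5 genes beyond 2.2 in either direction are not drawn.

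A single rat, MK-801 replicate 1, moved the values of Dusp5 and Dusp6 most. Without it, the log2 fold change of Dusp6 was 0.90 with a standard error of 0.11, against 0.72 and 0.21 with all rats, and that of Dusp5 was 0.39 with a standard error of 0.13. The log2 fold change of Dusp4 without this rat was 0.59. The rat did not stand apart by Dixon's criterion for 5 samples, since its gap to the next MK-801 rat was 0.650 of the range of log2 CPM for Dusp6 and 0.481 for Dusp5, under the critical 0.71. The values without it remain part of the comparison on which the genes were chosen.

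Dusp4 depended more on another animal. Without MK-801 replicate 3, its highest rat, the log2 fold change of Dusp4 was 0.35 with a standard error of 0.14, and without MK-801 replicate 2 it was 0.61. For Dusp5 the lowest value was 0.21, without MK-801 replicate 4. For Dusp6 the lowest was 0.60, without MK-801 replicate 3. All 3 genes kept a positive log2 fold change whichever single rat was left out. These values too belong to the comparison on which the genes were chosen.

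**Figure D3:**
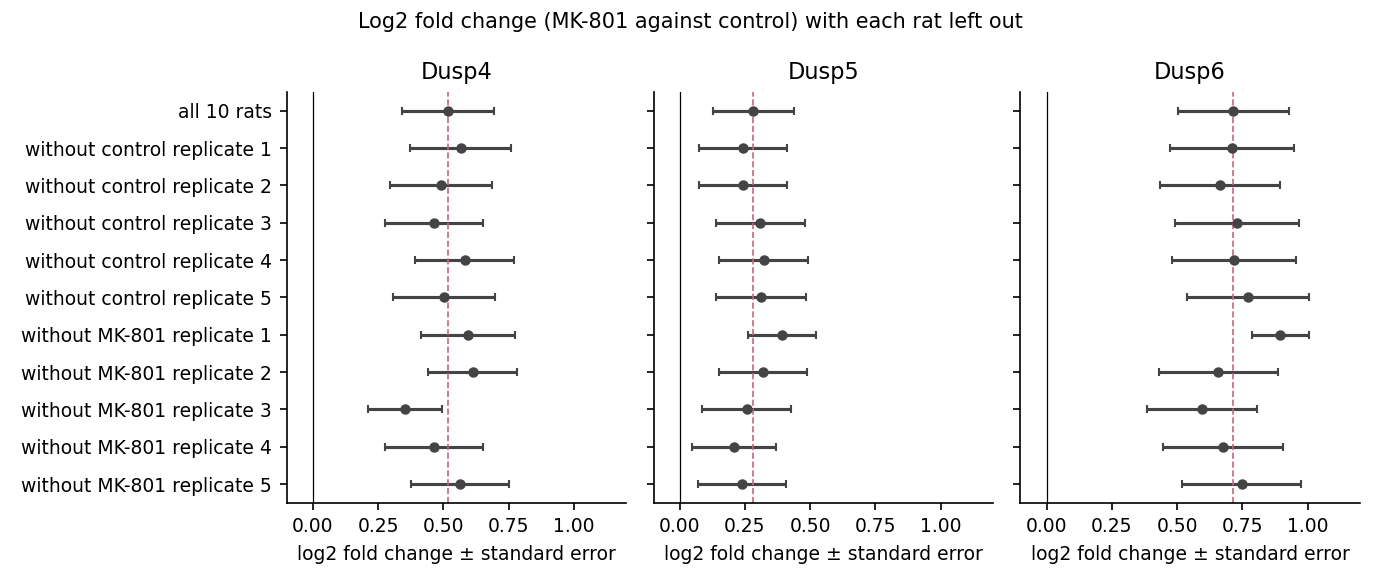
Log2 fold change between MK-801 and control rats for Dusp4, Dusp5 and Dusp6 with all 10 rats and with each rat left out in turn, with bars for the standard error and a dashed line at the value with all rats. For Dusp6, leaving out MK-801 replicate 1 gives 0.90 with the shortest error bar, and for Dusp4, leaving out MK-801 replicate 3 gives the lowest value, 0.35.

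The rats of the MK-801 group were more unequal than the control rats in all 3 genes. The SD of log2 CPM of Dusp6 was 0.16 in the control group and 0.58 in the MK-801 group, a ratio of 3.67, and 1.77% of all genes tested had a higher ratio. For Dusp4 the SDs were 0.20 and 0.40, with a higher ratio in 11.2% of genes, and for Dusp5 they were 0.17 and 0.32, with a higher ratio in 12.7% of genes. Over all genes tested the median ratio was 0.965, and 47.3% of genes had the larger SD in the MK-801 group. Without MK-801 replicate 1, the SD in the MK-801 group was 0.21 for Dusp6 and 0.18 for Dusp5, but 0.42 for Dusp4, so the wide spread of Dusp4 did not come from that rat. These spreads were not tested.

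Counting error bears on Dusp5 more than on the other 2 genes. Its raw counts were 88 to 130 in the control group and 103 to 175 in the MK-801 group. Its coefficient of variation in the control group was 11.5%, beside 9.53% from counting reads alone. For Dusp6, with 360 to 588 reads per control rat, the 2 figures were 10.8% and 4.63%, and in the MK-801 group they were 32.5% and 3.76%. Dusp4, with 224 to 321 reads per control rat, varied by 13.9% beside 6.11% in the control group and by 29.2% beside 5.20% in the MK-801 group. For Dusp5 in the MK-801 group the figures were 20.9% and 8.70%, so its spread exceeded counting error there, while in the control group it was close to it.

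The members also differed in how they stood relative to each other. The log2 ratio of Dusp6 to Dusp5 CPM was 2.07 ± 0.12 (SD, n = 5) in the control group, with a range from 1.94 to 2.22. In the MK-801 group it was 2.45 ± 0.38 (SD, n = 5) and ranged from 1.97 to 2.87, so the groups overlapped. The log2 ratio of Dusp6 to Dusp4 was 0.80 ± 0.25 in the control group and 0.96 ± 0.49 in the MK-801 group (SD, n = 5). These ratios compare rats and not the amounts of the transcripts, since CPM ignores gene length.

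Whether the 3 genes varied together between rats of the same group is a question that the choice of the genes did not use. For it, log2 CPM was expressed as the deviation of each rat from its group mean. Dusp5 and Dusp6 deviated in the same direction in 8 of 10 rats, with Pearson's r = 0.764 (two-sided exact permutation within the groups, p = 0.0581, adjusted p = 0.523 over 9 relations) and Spearman's rho = 0.467 (exact permutation p = 0.243, adjusted p = 0.731). This relation rested on single rats. Without control replicate 2 and MK-801 replicate 1, the 2 rats farthest from the median deviation of Dusp5, r was -0.068, and with MK-801 replicate 1 alone left out it was 0.202.

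Dusp4 followed the other 2 genes less closely. With Dusp5, Pearson's r was 0.485 (exact permutation p = 0.288, adjusted p = 0.758) and Spearman's rho was 0.515 (exact permutation p = 0.210, adjusted p = 0.731), with deviations of the same sign in 6 of 10 rats. With Dusp6, r was 0.474 (exact permutation p = 0.363, adjusted p = 0.758) and rho was 0.370 (exact permutation p = 0.392, adjusted p = 0.731), also with the same sign in 6 of 10 rats. Without MK-801 replicates 3 and 4, the 2 rats farthest from the median deviation of Dusp4, r was 0.200 with Dusp5 and -0.036 with Dusp6. Other rats moved the values upward, and without MK-801 replicate 2, r of Dusp6 was 0.734 with Dusp4 and 0.863 with Dusp5. No common variation of the 3 genes within the groups was thus detectable at 10 rats.

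**Figure D4:**
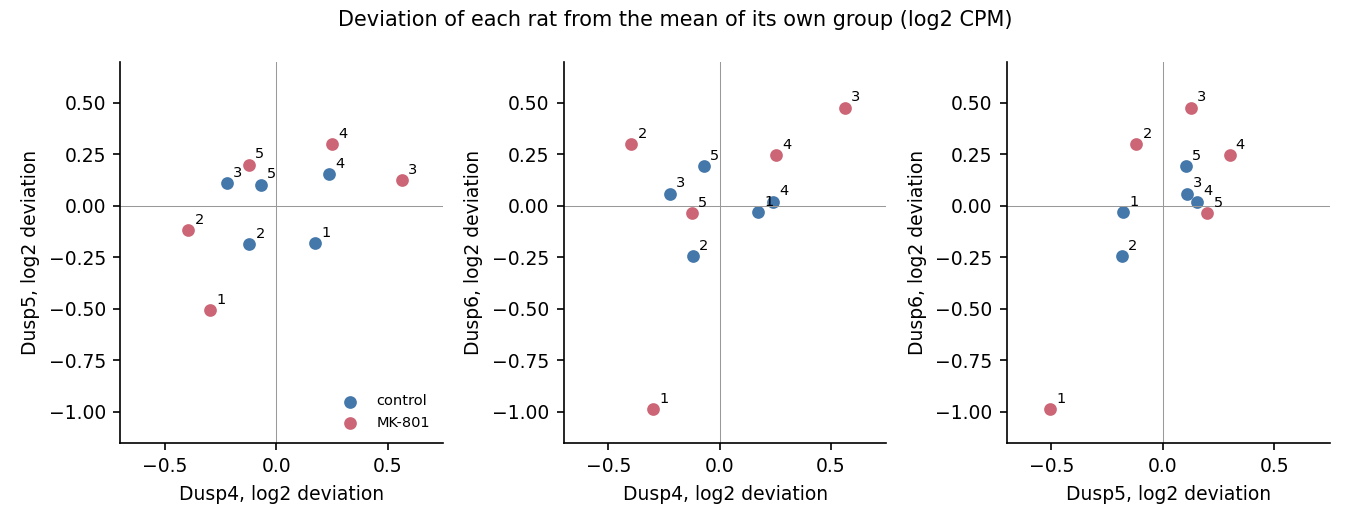
Deviation of each rat from the mean of its own group in log2 CPM, for the 3 pairs of Dusp4, Dusp5 and Dusp6, with control rats in blue, MK-801 rats in red and numbers giving the replicate. MK-801 replicate 1 lies far down in both panels with Dusp6, at -0.99, and MK-801 replicate 2 lies low in Dusp4 (-0.40) but high in Dusp6 (0.30).

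Among all genes ranked by this within-group r, Dusp5 came at place 206 of 16136 for Dusp6, and Dusp6 at place 154 for Dusp5. Dusp4 came at place 1593 for Dusp6 and 1537 for Dusp5. Of the 16134 genes that are no member, 3 had a mean r of at least 0.8 with the members. The most alike were ENSRNOG00000017020, with a mean r of 0.822 over 10 rats, and ENSRNOG00000021680, with 0.806. Neither had the members' difference between the groups, since ENSRNOG00000017020 had 36.9 ± 2.96 CPM in the control group and 32.4 ± 7.82 CPM in the MK-801 group, and ENSRNOG00000021680 had 10.4 ± 0.327 and 9.82 ± 1.35 CPM (SD, n = 5). The most opposed were ENSRNOG00000002369, with a mean r of -0.807, and ENSRNOG00000042628, with -0.802. All these rankings rest on the same 10 libraries, and no names are paired with these 4 identifiers in the files. Without MK-801 replicate 1, a setting chosen after seeing the data, Dusp5 came at place 4853 for Dusp6, and the mean r of ENSRNOG00000017020 was 0.610 and that of ENSRNOG00000021680 was 0.656.

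Library measures were set beside the members. The 10 most abundant genes of each rat took 8.27% ± 1.81 of all counts in control rats and 6.66% ± 0.471 in MK-801 rats (SD, n = 5), and their share in MK-801 replicate 1, at 7.05%, was the highest of that group. The total count of MK-801 replicate 1 was 30482771, the second highest of its group after replicate 5. Within the groups, Pearson's r of the members with this share lay between -0.150 and -0.013, and with the log2 total count between -0.402 and -0.165 (two-sided exact permutation, adjusted p from 0.758 to 0.966). Leaving out 1 rat moved these values, from -0.380 to 0.320 for Dusp5 with the log2 total count and from -0.598 to 0.010 for Dusp6. With the share as a covariate, the log2 fold changes were 0.47 for Dusp4, 0.28 for Dusp5 and 0.67 for Dusp6. Dusp4, with a standard error of 0.22 against 0.18 without the covariate, no longer had an unadjusted p-value under 0.05. Over all 16137 genes, those with such a p-value and a higher level in the MK-801 group fell from 1113 to 397 in this fit. The part of these measures in the difference of the members between the groups was not tested beyond this fit. In tissue of mixed cells, more cells of a type that transcribes these genes and more RNA per cell cannot be told apart, and markers of cell types are not analysed here because their identifiers could not be paired with names.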

How the data were processed

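The authors aligned the reads with HISAT2 (2.2.1), handled alignments with SAMtools (1.15.1) and counted them on Ensembl genes with featureCounts (Subread version 2.0.1). The submitters' processing notes name the genome build mRatBN7.2, and the strand setting is not given in the sources used here, so overlapping and antisense genes may share reads. The deposited values are raw counts per gene and rat, not normalized.

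Low-count genes were dropped by filterByExpr of edgeR version 4.0.16 in R version 4.3.3 (minimum count of 10, minimum total of 15), libraries were scaled by TMM, and all 16137 genes were fitted with the quasi-likelihood test and Benjamini-Hochberg adjustment. DESeq2 version 1.42.0 and limma version 3.58.1 were alternatives. Standard errors of the edgeR log2 fold changes were derived from the test, as the absolute log2 fold change over the square root of its F statistic. Log2 CPM used a prior count of 2. Within-group relations were tested by all 14400 orders of the rats within the groups. Those with the number mean also removed were tested by all orders of the replicate numbers. The labels name no batch. The edgeR, DESeq2 and limma-voom fits, but not the permutation tests, were also run on simulated counts, with the outcome not reported here.

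The members and lists were chosen with earlier results of these data known. Named genes were the members and the 2 genes most alike and the 2 most opposed to them by mean within-group r. The lists of other MAP kinase regulators and of cell type markers are not analysed here. The RefSeq table used holds no Ensembl identifiers, so 0 of the 30560 identifiers could be matched to a name. Both groups use replicate numbers 1 to 5, and the labels do not say whether same-numbered rats belong together. Deviations of same-numbered rats correlated at -0.049 to 0.319, above 0.1 in 3 of 5 pairs. Those of differently numbered rats correlated at -0.221 to 0.126. Whether the numbers mark a shared batch or pairing was not tested. The main fit therefore takes no pairs, and a fit with the number as a block is given below.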

Additional observations from a re-analysis of the deposited data

How the results depend on the processing

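The log2 fold changes of Dusp4, Dusp5 and Dusp6 stayed positive and moved by less than the within-group SD under every alternative run: RLE and upper quartile scaling, DESeq2, limma-voom, no filter, the replicate block, a mean of at least 10 counts as the filter, the covariate, a prior count of 2 and each rat left out. Leaving out 1 rat gave 0.35 to 0.61 for Dusp4, 0.21 to 0.39 for Dusp5 and 0.60 to 0.90 for Dusp6, and the other alternatives gave 0.47 to 0.53, 0.25 to 0.29 and 0.62 to 0.73. With the replicate block they were 0.49, 0.27 and 0.65. Dusp5 then also had an unadjusted p-value under 0.05, making 3 members in place of 2. So had 2862 of 16137 genes, 1448 of them higher in the MK-801 group, against 2235 and 1113 in the main fit. The block left 0 genes under 0.05 after adjustment, and the numbers were not taken as pairs. Deviations from both the group and the number mean gave r = -0.898 for Dusp4 with the share of counts in the top 10 genes, -0.809 for Dusp4 and -0.707 for Dusp6 with the log2 total count (exact permutation, adjusted p from 0.300 to 0.394). No relation within the groups had an adjusted p-value under 0.05 under any alternative run.

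Counts over all genes moved more. At an adjusted p-value under 0.05, DESeq2 gave 106 genes in place of 0, and leaving out 1 rat gave 0 to 12, the 12 without MK-801 replicate 1. Dusp6 was 1 of these 12, out of 16239 genes tested in that edgeR fit. All 3 members then had an unadjusted p-value under 0.05 and a higher level in the MK-801 group, as did 859 genes in all. The members were chosen on this contrast, so nothing is read from these calls about them. Under the criteria of the methods, 37 genes were called, against 115 with DESeq2, 337 without a filter and 39 to 64 with 1 rat left out, the 58 and 64 being those without replicates 1 and 5 of the MK-801 group. An unadjusted p-value under 0.05 was found for 2235 genes, and for 777 genes with the covariate, the share of counts held by each rat's 10 most abundant genes, and 1458 to 3280 with 1 rat left out, with 1458 without control replicate 3 and 1474 without control replicate 4. Genes wholly higher in the MK-801 group numbered 177, and 275 without MK-801 replicate 1, a setting chosen after seeing the data. Why these counts moved was not tested.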
